A study of Mus musculus with 5 samples.

Results

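The regions described here are the H3K27me3 peaks that H3.3 K27M and EZHIP cells held in common away from protein-coding promoters. Each is a K27M peak on chromosomes 1 to 19 that overlapped an EZHIP peak by at least 1 bp and contained no 5′ end of a protein-coding gene in the mm9 annotation GENCODE vM1. Of 3338 autosomal K27M peaks, 1105 (33.1%) met the rule, and they are called shared promoterless peaks below. All cells were mouse embryonic fibroblasts with floxed Eed, carried in culture and transduced with lentivirus for stable expression of histone H3.3 with methionine (K27M) or arginine (K27R) in place of lysine 27, or of human EZHIP. The H3K27me3 ChIP-seq peaks of each line came as 1 list with no replicate and no signal values, so shares and medians below carry 95% intervals for counting error only and no test between conditions was possible. The parental floxed cells and the EED deletion clone were not analysed here.

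PRC2 is the enzyme complex that places methyl groups on lysine 27 of histone H3. It is brought to CpG islands, short stretches rich in unmethylated CG dinucleotides, and from there H3K27me3 spreads outward into broad domains over silent developmental genes. K27M histone and EZHIP, a protein whose tail resembles the K27M peptide, both inhibit PRC2. K27R histone does not inhibit the complex, so its peaks serve here as the map of where H3K27me3 lay without inhibition.

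The peaks were chosen by measured values, the positions of the K27M and EZHIP peaks, so what the rule fixes is given as description. Across all autosomal K27M peaks 74.6% overlapped an EZHIP peak, and the share was 65.3% of the 1692 promoterless peaks against 84.2% of the 1646 peaks over a promoter. The smallest overlaps that still counted were 200 bp, the bin of the peak caller, at peaks near Olfr12, Gm572 and Gm10391. Promoterless K27M peaks near Ptk6 and Art2b were left out with a gap of 400 bp to the nearest EZHIP peak. For start sites, the start sites of Rgs9bp and Slc17a6 lay 1 bp and that of Lrp11 3 bp outside the peak that was kept. The start of Ccdc147 lay 1 bp, and those of Ankrd6 and Arhgef16 15 bp, inside peaks that were excluded. These distances are below the bin size, so the peaks at this edge cannot be told apart from promoter peaks.

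DNA from 4 of the shared promoterless peaks gives examples of the sequence they covered. The windows are 300 bp long and read from the NCBIM37 (mm9) genome, plus strand, 5′ to 3′, and capitals mark every CG dinucleotide. Those in Cyp26b1, in A430072P03Rik and in Shank1 are the middles of the CpG islands in peaks with much island sequence, and the last is the middle of the widest such peak that had no island. Each of the 4 lay wholly inside an EZHIP peak as well. Windows at AY036118, with 41 CG, and near Gm5373, with 0 CG, were drawn in the same way but are not shown. The Gm5373 window did not lie wholly inside an EZHIP peak.
Cyp26b1 intron (chr6:84536246-84536545, plus strand): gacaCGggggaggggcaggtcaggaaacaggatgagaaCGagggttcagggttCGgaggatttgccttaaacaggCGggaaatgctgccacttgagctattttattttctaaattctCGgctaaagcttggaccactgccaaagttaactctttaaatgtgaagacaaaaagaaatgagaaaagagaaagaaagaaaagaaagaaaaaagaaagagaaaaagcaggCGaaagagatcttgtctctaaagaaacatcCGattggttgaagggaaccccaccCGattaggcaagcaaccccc
A430072P03Rik and Gfi1 window (chr5:108153937-108154236, plus strand): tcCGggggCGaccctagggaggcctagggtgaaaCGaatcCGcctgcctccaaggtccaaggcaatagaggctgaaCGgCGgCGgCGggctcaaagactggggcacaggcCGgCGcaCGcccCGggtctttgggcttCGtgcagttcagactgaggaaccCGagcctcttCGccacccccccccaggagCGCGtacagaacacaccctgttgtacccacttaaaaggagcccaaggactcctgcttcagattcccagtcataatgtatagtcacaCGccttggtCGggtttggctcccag
Shank1 coding exon (chr7:51608240-51608539, plus strand): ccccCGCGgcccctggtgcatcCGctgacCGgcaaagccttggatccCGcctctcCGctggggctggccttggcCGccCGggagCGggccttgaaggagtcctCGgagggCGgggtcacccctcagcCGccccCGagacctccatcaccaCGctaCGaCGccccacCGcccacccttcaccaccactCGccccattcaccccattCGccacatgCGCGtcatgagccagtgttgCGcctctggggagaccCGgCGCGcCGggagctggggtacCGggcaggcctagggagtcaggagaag
Intergenic window with no island (chr11:116881551-116881850, plus strand): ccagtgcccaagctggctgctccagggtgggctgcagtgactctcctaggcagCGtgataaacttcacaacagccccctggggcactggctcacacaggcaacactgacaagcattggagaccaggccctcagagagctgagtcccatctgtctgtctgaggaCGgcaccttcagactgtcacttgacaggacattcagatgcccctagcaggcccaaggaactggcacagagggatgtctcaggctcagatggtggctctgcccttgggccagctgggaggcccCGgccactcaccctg

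The Cyp26b1 window lies in the gene for a retinoic acid degrading enzyme, outside its coding sequence, and holds 8 CG. The word intron in its label rests on that absence of coding sequence alone. The second window lies where the lincRNA A430072P03Rik and Gfi1, a zinc finger repressor of blood and inner ear cells that vM1 lists as a processed transcript, overlap, and holds 19 CG. The third is coding sequence of Shank1, a scaffold of excitatory synapses, and holds 27 CG, the most of the 4 windows. The window with no island holds 3 CG and lies between genes.

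Shared promoterless peaks were mostly a few kilobases wide. Their median width was 5.4 kb (95% interval 5.2 to 6.0), with quartiles at 3.2 and 11.2 kb and a range from 1.2 to 103.2 kb. Shared peaks over promoters had a median of 12 kb (11.4 to 12.8), and K27M peaks with neither EZHIP overlap nor promoter had a median of 3.4 kb (3.2 to 3.6). A wider peak has more room to touch an EZHIP peak and to contain a start site, so these differences follow in part from the rule. The shared promoterless peaks added up to 10.2 Mb, which was 24.0% of the length of all autosomal K27M peaks.

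EZHIP peaks covered most of the length of the typical shared promoterless peak. The median share covered was 83.3% (95% interval 80.0 to 86.3), and 69.7% of the summed length was shared. In 377 of the 1105 (34.1%) the K27M peak lay entirely inside an EZHIP peak, and in 441 every overlapping EZHIP peak lay entirely inside the K27M peak. In the other 310 at least 1 EZHIP peak crossed an edge of the K27M peak without containing it. In 23, counted in both of the first groups, the edges were identical to the bin. These included peaks near Noto, a homeodomain factor of the notochord, near Tmem89, and at AY036118, where read placement was not tested. Most, 969, met exactly 1 EZHIP peak, and 136 met more than 1. In 51 the EZHIP peak ran on to a protein-coding start site that the K27M peak did not reach.

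**Figure D1:**
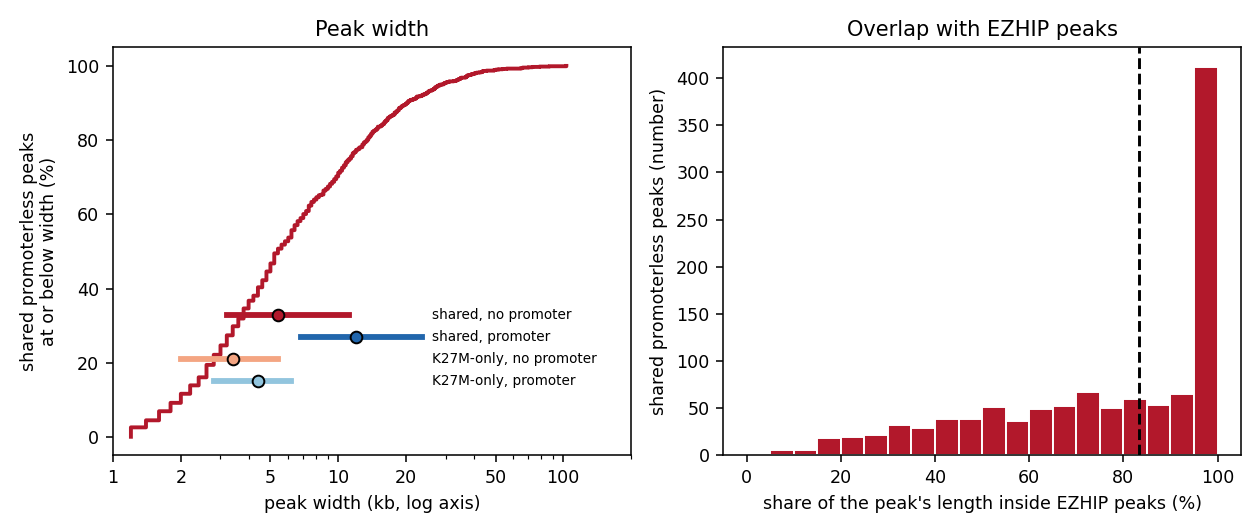
Left, the cumulative share of shared promoterless peaks (red line) against peak width in kb on a log axis, with the median (point) and quartiles (bar) of each of the 4 classes of autosomal K27M peak drawn beneath it at heights that carry no value. The shared promoterless median of 5.4 kb sits between the 3.4 kb of K27M-only promoterless peaks and the 12 kb of shared promoter peaks. Right, the number of shared promoterless peaks by the share of their length inside EZHIP peaks in percent, in steps of 5, with the median of 83.3% dashed.

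The widest, chr5:122342601-122445800, spanned 103.2 kb inside Cux2, a homeodomain factor of upper-layer cortical neurons, and 3 EZHIP peaks covered 96.8 kb of it. It lay 6.6 kb from the next K27M peak over a start site, within the same K27R region of 260.4 kb. A peak of 86.6 kb lay in 1700106N22Rik, 85.3 kb from the start of Six3, a homeodomain factor of the eye and forebrain, and EZHIP peaks covered 41.6 kb of it. A peak of 78.4 kb lay in the flank of the Hoxc cluster next to Calcoco1, with 60.2 kb covered. It was 75 kb from the nearest K27M peak over a start site. A peak of 73.0 kb lay in Camta1, a calmodulin-binding transcription activator, with 55.2 kb covered. The remaining 4 of the widest 8 were at Rhbg, an ammonium transporter (70.0 kb), near Tmem33 (66.0 kb), at the lincRNA 9530059O14Rik (65.8 kb) and near Tbca, a tubulin folding cofactor (64.6 kb). EZHIP coverage across these 8 ran from 40.6% at the Tmem33 peak to 93.8% at Cux2, and in 6 of the 8 more than 1 EZHIP peak overlapped the K27M peak.

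**Figure D2:**
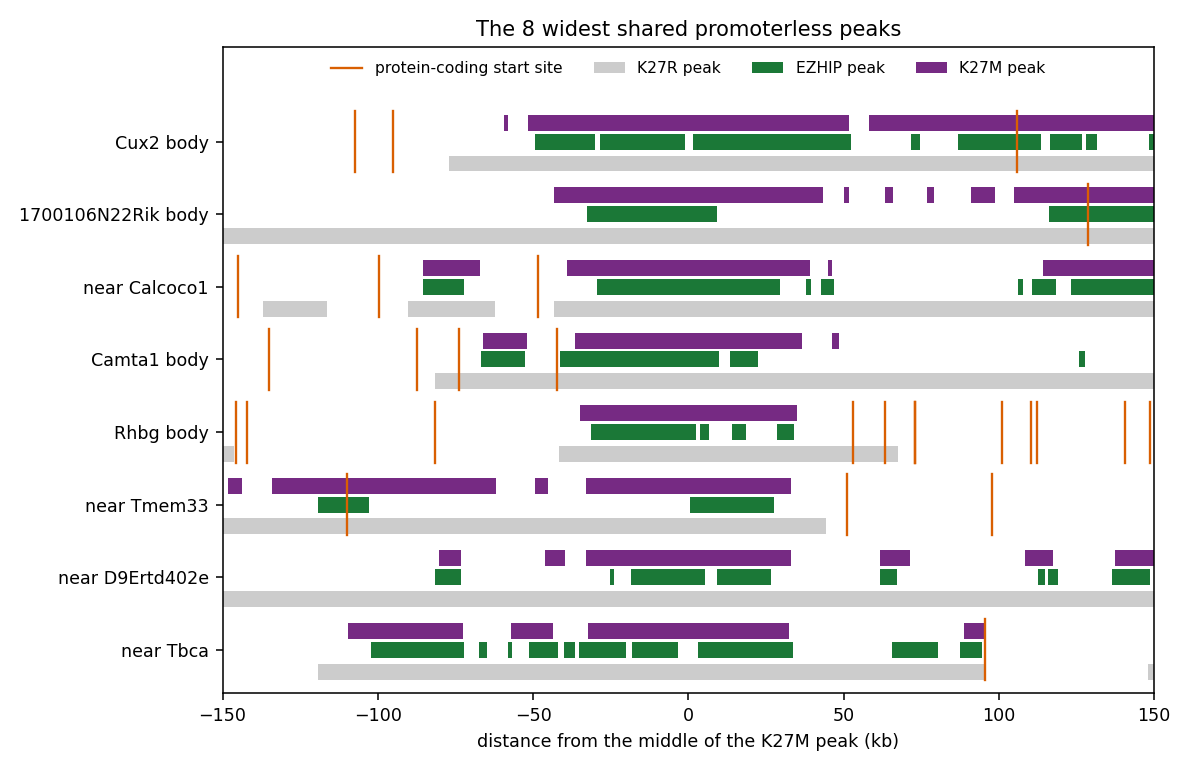
The 8 widest shared promoterless peaks, each row centred on the middle of the K27M peak, with distance in kb along the plus strand on the horizontal axis. Purple bars are K27M peaks, green bars EZHIP peaks, grey bars K27R regions and orange lines protein-coding start sites, all cut off at 150 kb. The central purple bar of 64.6 to 103.2 kb crosses no orange line in any row, and the green bars under it are broken into pieces in 6 of the 8 rows.

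CpG islands were less common in shared promoterless peaks than in K27M peaks as a whole. A CpG island, found as a run dense in CG at least 200 bp long with G+C of at least 50% and an observed to expected CG ratio of at least 0.6, was present in 323 of 1105 (29.2%, 26.6 to 32.0), against 58.1% of all autosomal K27M peaks. The share was 91.1% (89.5 to 92.6) of shared promoter peaks and 21.1% (17.9 to 24.7) of K27M-only promoterless peaks. The rule left out peaks over promoters, which are known for their islands, so the lower share follows in part from the rule. With islands of at least 500 bp the share of shared promoterless peaks was 19.7%, and with a sliding-window definition of the island it was 65.2%, so the level depends on how an island is defined.

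The share rose with width among shared promoterless peaks. It was 16.3% (11.9 to 21.6) below 3 kb, 19.8% (15.7 to 24.5) from 3 to 6 kb, 38.0% (32.1 to 44.1) from 6 to 12 kb and 44.9% (38.7 to 51.2) at 12 kb and above. At equal width shared promoter peaks held an island in 77.8% to 94.3%. In the same order of width, K27M-only promoterless peaks held one in 23.3% (18.3 to 29), 17.5% (12.5 to 23.5), 19.1% (11.8 to 28.6) and 30.6% (16.3 to 48.1). Their share was the higher below 3 kb and the lower in the other widths, and the intervals of both classes overlapped at every width but 6 to 12 kb.

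The peaks with the most island sequence lay in genes, at noncoding genes, close to a start site or far from any. A further protein-coding transcript began in 25.1% of peaks with an island and 2.81% of those without. A gene start lay within 5 kb of 28.5% and 15.9%. A peak of 13.2 kb in Cyp26b1 held an island of 5899 bp and had 35.5 CG per kb, against 8.94 in the rest of its K27R region. It lay 1.54 kb from the start of Cyp26b1 and held a further transcript start of that gene. A peak of 6.2 kb at AY036118, which vM1 lists as a pseudogene (chr17:39979801-39986000), held an island of 5823 bp. It had 96.8 CG per kb, against 5.11 in the rest of its region. Of its sampled 31-base words 19.4% occurred more than once on chromosomes 1 to 19 and X, a count blind to copies missing from the assembly. Its CG density was the highest of the named peaks. The peak may be a site of read pile-up, and the part of read placement in it was not tested. A peak of 49.4 kb at A430072P03Rik and Gfi1 held an island of 3610 bp. The next were in Shank1 (38.2 kb), at Tnfrsf25, a receptor of the TNF family, and Espn, an actin-bundling protein of hair cells (15.8 kb), and near Dhx15 and Gdi2 (15.0 kb each). The Tnfrsf25 and Espn peak lay 2.16 kb from the nearest start and held a further transcript start of Espn. The Dhx15 and Gdi2 peaks held islands of 3278 and 3168 bp although the nearest start site was 70.2 and 170.5 kb away.

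An island is by definition dense in CG, so a higher CG density in peaks with an island is fixed by that split, and the values are given as description. Among 321 peaks with an island and a measurable rest of region, the median was 20.6 CG per kb in the peak and 11.1 in the rest of the K27R region outside all K27M and EZHIP peaks, and the peak was the denser in 309 (96.3%, 93.6 to 98.1). Among 778 peaks without an island the medians were 11.5 and 11 CG per kb, and the peak was the denser in 403 (51.8%, 48.2 to 55.4). The median difference of the latter was 0.13 CG per kb, with an interval from -0.13 to 0.47 that includes 0. Without the peaks of repeated sequence the median difference of the remaining 728 was 0.33 CG per kb (0.022 to 0.707), and the peak was the denser in 53.8% (50.1 to 57.5), so whether the interval includes 0 depends on these peaks. Peaks without an island made up 782 of the 1105. Their median width was 4.8 kb against 8.6 kb for peaks with an island, and EZHIP covered a median of 87.5% of them against 77.0%.

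**Figure D3:**
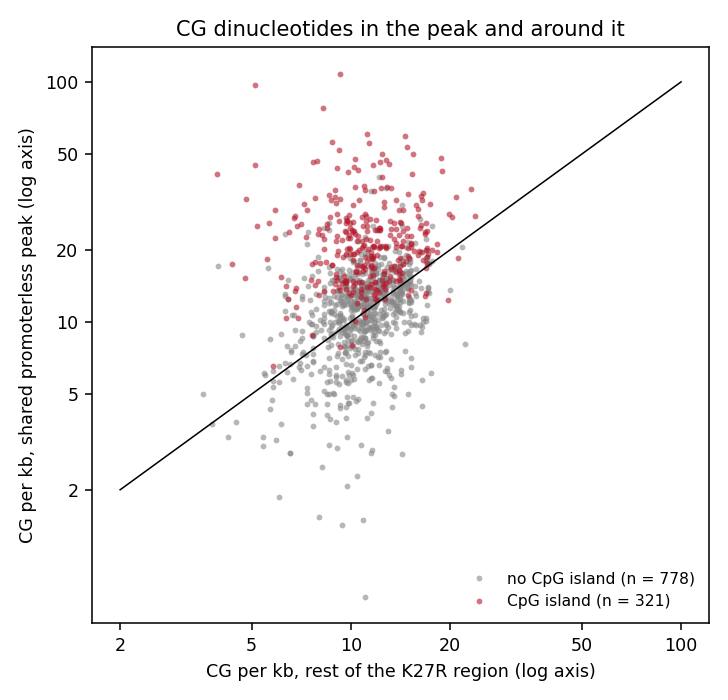
CG dinucleotides per kb in each shared promoterless peak (vertical, log axis) against the rest of its K27R region outside all K27M and EZHIP peaks (horizontal, log axis). Red points are the 321 peaks with a CpG island, of which 309 lie above the line of equality, and grey points the 778 without, which lie on both sides of it (403 above).

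In the middle 1 kb the median was 12 CG in shared promoterless peaks, 22 in shared promoter peaks, 8 in 1 kb tiles inside K27R regions and 7 in tiles of all autosomes. The word GAGAGAGA on either strand, a short repeat of the kind bound by GAGA-type factors, was found in the middle 1 kb of 245 shared promoterless peaks (22.2%, 19.8 to 24.7). It was found in 18.4% of shared promoter peaks, 22.3% of K27M-only promoterless peaks, 18.3% of K27R tiles and 15.7% of all autosomal tiles. The share was 22.6% in peaks without an island and 21.1% in those with one, so it did not follow the islands. Shared and K27M-only promoterless peaks differed by less than the counting error.

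Many of the shared promoterless peaks lay inside genes. A protein-coding gene body overlapped 463 (41.9%, 39.0 to 44.9), against 70.8% of all autosomal K27M peaks, among which those over a promoter count by definition. K27M-only promoterless peaks overlapped a body in 43.4% (39.4 to 47.6), a difference smaller than the counting error. The other 642 were intergenic. An exon was touched in 30.0% and coding sequence in 26.5%. Of the 374 that lay wholly inside 1 gene, 94, 91, 120 and 69 had their middle in successive stretches of 25% of the gene, from its start to its end, and the median position was 50.5% of the way from the start. Peaks that contain the gene's 5′ end were removed by the rule, so this describes only the peaks that remained.

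The 396 host genes had a median length of 59.3 kb, against 15.5 kb for all 21418 autosomal protein-coding genes, and a longer gene offers more sequence to meet a peak. The start sites of 86.4% of host genes lay in a K27R region, against 28.2% of all genes, and 34.6% lay in a K27M peak of their own, against 8.94%. Cdh23, a cadherin of hair cell tip links, and Slit1, a midline repellent of axons, each overlapped 5 of the peaks, as did Gm20388, a gene model that spans many neighbours. Rbfox3, the neuronal splicing factor also known as NeuN, overlapped 4. Col13a1, a transmembrane collagen, Grm4, a glutamate receptor, Dlgap4, a synaptic scaffold protein, and Nfasc, a protein of the node of Ranvier, overlapped 3 each.

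A protein-coding transcript other than the one that sets the gene's 5′ end began inside 103 of the shared promoterless peaks (9.32%, 7.67 to 11.2), and inside 7.50% (5.50 to 9.93) of K27M-only promoterless peaks. The 2 intervals overlap. The widest were in Cux2, Camta1 and Rhbg. A peak of 56.0 kb in Nrxn2, a presynaptic neurexin, held 2 such transcript starts and was covered by EZHIP over 55.6 kb. A peak of 28.8 kb at Gad1, which makes GABA, held 4, and peaks in Esrrb, an orphan nuclear receptor (22.2 kb, 4 starts), and in Cacna1a, a neuronal calcium channel (17.8 kb, 3 starts), followed the same layout. Such internal transcript starts lay in about as large a share of these peaks as noncoding gene starts did.

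A noncoding gene began inside 97 of the shared promoterless peaks (8.78%, 7.18 to 10.6), against 13.0% of all autosomal K27M peaks, 277 of the 1386 shared promoter peaks and 5.79% (4.04 to 8) of K27M-only promoterless peaks. Processed transcripts began in 35, lincRNAs in 22, pseudogenes in 21 and miRNAs in 19, with some peaks holding more than 1 kind. The widest peaks over lincRNAs not yet named spanned 44.0 and 43.8 kb among U1 snRNA genes on chromosome 3. The next spanned 42.4 kb on chromosome 13, held 5 CpG islands and contained the starts of C130071C03Rik and of Mir9-2, with the nearest protein-coding start, that of Mef2c, 203.8 kb away. In 11 of the 1105 peaks the noncoding start carried a symbol that RefSeq (GRCm38.p6) lists as protein coding. Besides Gfi1 these were Ascl4, a proneural bHLH factor, Rassf10, Kctd12, Kbtbd13, Frmd4a, H2-Q8, Ace3 and 3 predicted genes, so for some of the 11 the absence of a promoter rests on the vM1 annotation.

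**Figure D4:**
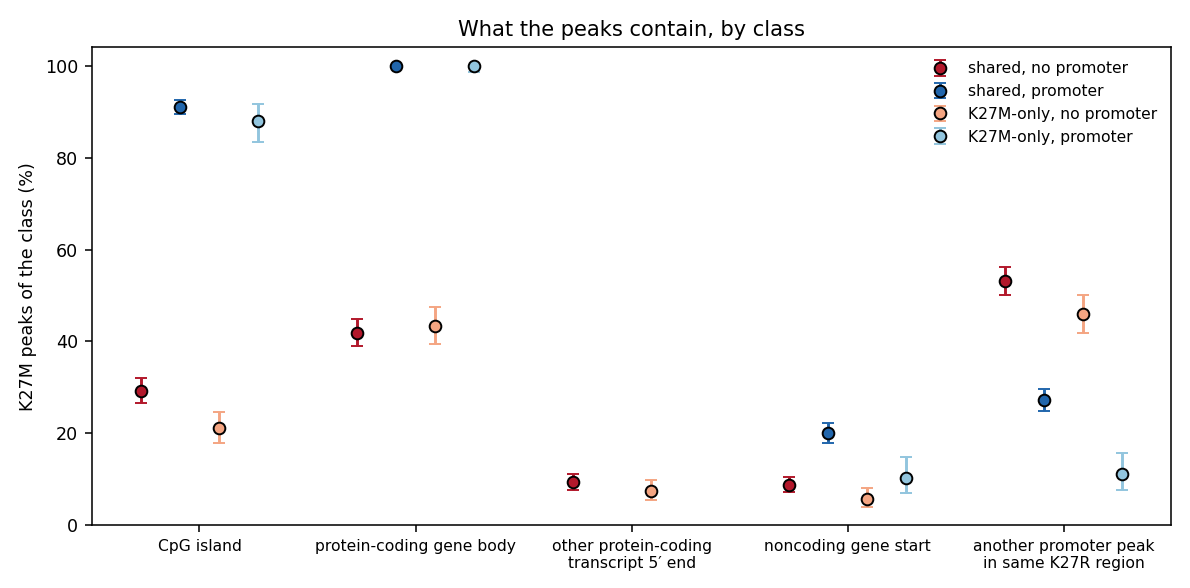
The percent of K27M peaks in each of the 4 classes that hold a CpG island, overlap a protein-coding gene body, hold the 5′ end of a further protein-coding transcript (promoterless classes only), hold a noncoding gene start, or share their K27R region with another K27M peak over a promoter. Bars are 95% Clopper-Pearson intervals for counting error, and the promoter classes are at 100% for gene bodies by definition. Shared promoterless peaks (dark red) are far below the promoter classes for islands (29.2% against 91.1% and 88.1%) and are the highest class for a promoter peak in the same region (53.1%).

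In all, 24 annotated hairpins lay with their 5′ end in 19 peaks, and 13 of them, in 11 peaks, had a miRNA symbol. RefSeq mature sequences were matched by symbol for 11 of the 13, and all 21 matched mature sequences were found at the mm9 hairpin. Of the 21, 11 are shown, a single arm for each matched hairpin. For Mir1a-1 the 5p arm was the only sequence matched. The sequences run 5′ to 3′ with the seed, bases 2 to 8, in capitals, because the seed decides which messages a miRNA can pair with. Mir124a-1 and Mir124a-3 are named only.
mmu-miR-9-5p: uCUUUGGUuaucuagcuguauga
mmu-miR-7b-5p: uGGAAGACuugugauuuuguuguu
mmu-miR-7a-5p: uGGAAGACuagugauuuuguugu
mmu-miR-96-5p: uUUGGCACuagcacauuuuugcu
mmu-miR-183-5p: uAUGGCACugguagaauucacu
mmu-miR-132-3p: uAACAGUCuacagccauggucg
mmu-miR-212-3p: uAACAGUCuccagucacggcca
mmu-miR-137-3p: uUAUUGCUuaagaauacgcguag
mmu-miR-129-5p: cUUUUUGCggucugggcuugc
mmu-miR-135a-5p: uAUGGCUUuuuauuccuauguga
mmu-miR-1a-1-5p: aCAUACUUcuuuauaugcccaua

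miR-7b and miR-7a share the seed GGAAGAC although their hairpins, Mir7b and Mir7-2, lay in different peaks on chromosomes 17 and 7, and miR-132 and miR-212 share AACAGUC from neighbouring hairpins in 1 peak on chromosome 11. The other seeds shown occur once. miR-9 and miR-124 are known for neurons and neural progenitors, miR-96 and miR-183 for sensory cells of the ear and eye, and miR-1 for muscle.

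The peak over Mir9-2 spanned 42.4 kb and EZHIP covered 37.4 kb of it. Peaks over Mir124a-1 and Mir124a-3 spanned 29.4 and 21.0 kb, with 18.2 and 13.0 kb covered. The Mir7b peak spanned 26 kb and the Mir7-2 peak 11.8 kb, and the Mir1a-1 peak spanned 24.6 kb within a K27R region of 307.4 kb that also held 3 K27M peaks over promoters. The Mir129-2 peak of 10.6 kb was wholly covered, and the Mir137 peak of 10.0 kb was covered over 6.6 kb. All 8 were wider than the class median of 5.4 kb, while the Mir212 and Mir132 peak, at 3.0 kb, was narrower. A wider peak has more room to hold a hairpin.

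The hairpin itself lay in an EZHIP peak for 7 of the 13. For the other 6 no EZHIP peak touched the hairpin, with the nearest EZHIP peak 89 bp from Mir212, 366 bp from Mir132, 654 bp from Mir135a-1, 879 bp from Mir7b, 2863 bp from Mir183 and 3049 bp from Mir96. The Mir96 and Mir183 peak spanned 18.8 kb and held an island of 3070 bp. The Mir212 and Mir132 peak was the shortest of those over a miRNA with a symbol, at 3.0 kb, and lay 1.18 kb from the start of Hic1, a zinc finger repressor. Its CG density was 59.7 per kb, against 14.5 in the rest of its region. The Mir132 hairpin ran past the end of its K27M peak. A hairpin's 5′ end is not the start of its primary transcript, so these positions say nothing of the miRNA promoter.

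**Figure D5:**
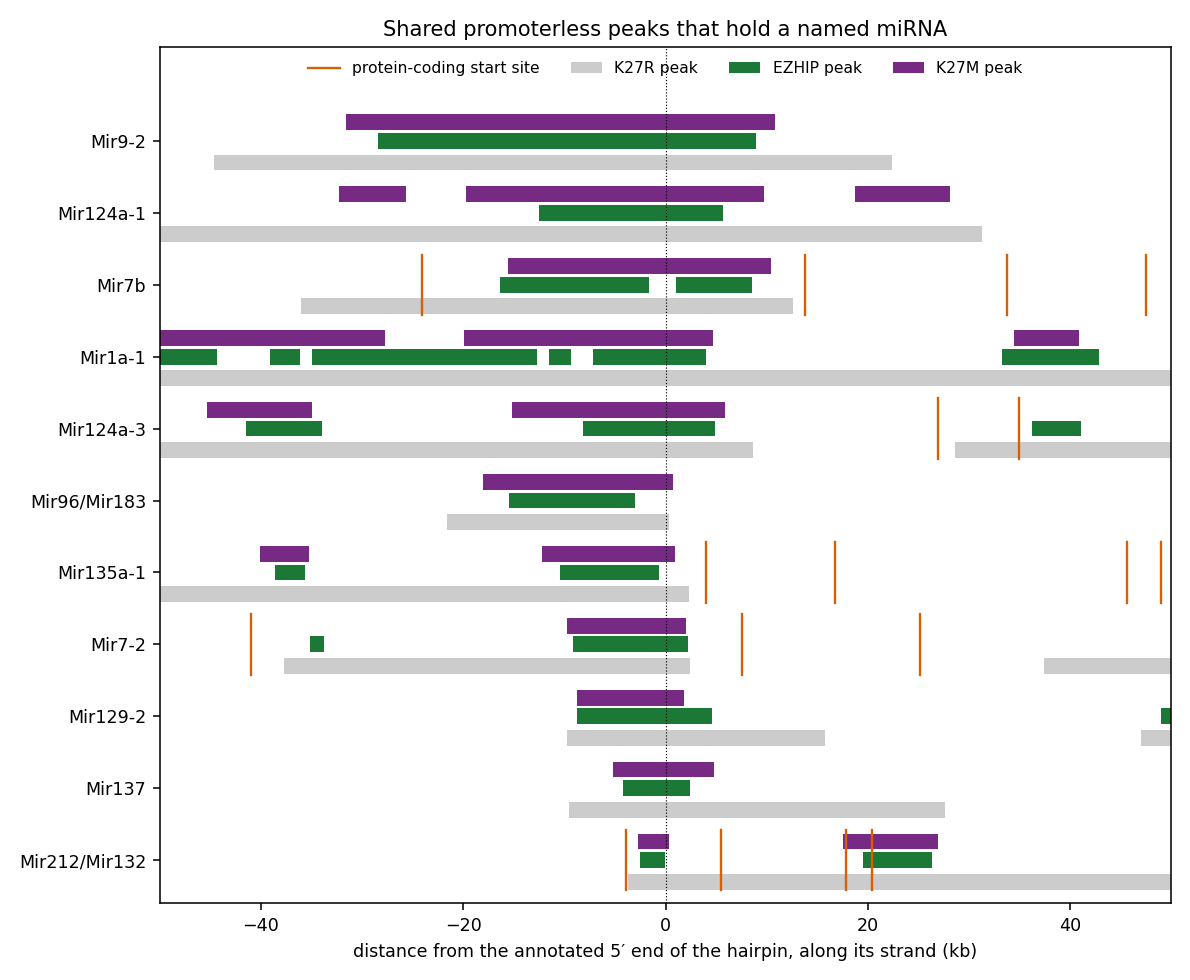
The 11 shared promoterless peaks that hold a miRNA with a symbol, with distance in kb from the annotated 5′ end of the hairpin (of the first named where there are 2) along its own strand. Purple bars are K27M peaks, green bars EZHIP peaks, grey bars K27R regions and orange lines protein-coding start sites, cut off at 50 kb. The purple bar crosses the dotted line in every row, while at Mir7b, Mir96/Mir183, Mir135a-1 and Mir212/Mir132 the line passes beside the green bars.

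The median distance from a shared promoterless peak to the nearest protein-coding start site was 23.0 kb (19.9 to 25.1), with quartiles at 7.51 and 54.6 kb. K27M-only promoterless peaks lay at a median of 28.2 kb (25.1 to 32.9), an interval that only just meets the former. A start lay within 5 kb of 216 (19.5%), and no start lay within 100 kb of 119 (10.8%). The farthest was a peak of 4.8 kb on chromosome 16 at 631.8 kb from Robo1, an axon guidance receptor, with 17.1 CG per kb against 3.94 in the rest of its region. Others lay 443.5 kb from Med13l and 372.5 kb from Kcnh5, a potassium channel, the last of which was 1.2 kb wide and was matched by a K27R peak of the same 1.2 kb.

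The nearest start sites belonged to 911 genes, 4.25% of the 21418 autosomal protein-coding genes. Among 130 homeodomain factors outside the Hox clusters 19 were the nearest gene (14.6%, 9.03 to 21.9), for example Lhx5, Otx2, Pax7, Six2 and Nkx6-1, and 17 of the 19 had their own start in a K27M peak. Among 81 potassium channel genes 17 were (21.0%, 12.7 to 31.5), for example Kcnk12 and Kcnc4, and 12 of them had their own start in a K27M peak. These families have many starts in K27R regions, 108 of 130 and 64 of 81, against 6041 of all 21418 genes. Many of their starts also lay in K27M peaks whether or not they were nearest, 100 of 130 and 48 of 81. Of all 21418 genes 1915 had such a start, and of the 911 nearest genes 220 did.

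For smaller families the counts were 3 of 18 Sox factors (Sox8, Sox14 and Sox21), 3 of 15 T-box factors (T, Tbx3 and Tbx5), 3 of 40 forkhead factors and 5 of 57 bHLH factors. A mixed list of GATA, Zic, Klf, Tfap2, Ebf and other factors counted 6 of 47, namely Ebf2, Ebf3, Gata4, Gata5, Klf13 and Sall4. Among signalling genes the counts were 5 of 25 Fgf ligands and receptors, 4 of 43 Wnt ligands, receptors and antagonists, 2 of 42 of the TGF-beta family, 1 of 10 of the Hedgehog pathway and 4 of 41 nuclear receptors. The Fgf genes, Fgf1, Fgf5, Fgf6, Fgf23 and Fgfr3, all had their start in a K27R region, and none of the 5 had it in a K27M peak. Of all 25 genes of this family 11 had their start in a K27R region and 5 in a K27M peak. Axon guidance genes counted 7 of 70, glutamate, GABA and glycine receptors 4 of 50, cadherins 2 of 57, collagens 3 of 41 and solute carriers 21 of 316. Olfactory and vomeronasal receptor genes, which lie in large arrays silent in fibroblasts, counted 14 of 1400 (1.00%, 0.548 to 1.67), and Zfp genes 9 of 337 (2.67%, 1.23 to 5.01). The intervals for T-box factors, Fgf genes and the mixed list lay above 4.25%, and that for olfactory and vomeronasal receptors lay below it. Those of the other families in this paragraph included it. The interval of the mixed list counts its Ebf genes and was not computed without them. These families also differ in how many starts lay in K27R regions. Such starts numbered 9 of 15 for T-box factors, 25 of 47 for the mixed list and 257 of 1400 for olfactory and vomeronasal receptors. Of all 21418 genes 6041 had one.

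None of the 40 Hox genes was the nearest gene of a shared promoterless peak, and none of the peaks lay inside any of the 4 Hox clusters. Within 150 kb there were 3 beside Hoxc and 1 beside Hoxd. Beside Hoxc lay the peak of 78.4 kb already named, a peak of 16.4 kb near Smug1, a DNA repair glycosylase, and a peak of 1.2 kb. The peak beside Hoxd was 6.2 kb wide, 34.1 kb from Evx2, and EZHIP covered 1.6 kb of it. Of the 40 Hox starts 22 lay in a K27M peak, and such peaks are over promoters and so fall outside the rule.

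Every shared promoterless peak overlapped a K27R region, and 98.5% lay wholly inside one. This was nearly general, with 99.3% and 96.3% of all autosomal K27M peaks. For K27M-only promoterless peaks the shares were 96.1% and 92.2%. Those regions were wide, with a median of 175.6 kb per peak (165.8 to 187.0), against 117.6 kb (111.6 to 130.0) for shared promoter peaks, 117.6 kb (105.0 to 139.8) for K27M-only promoterless peaks and 15.6 kb over all autosomal K27R regions. A peak is counted once for its region, so wide regions that hold several peaks weigh more. All K27M peaks of the region together covered a median of 18% of it. In all, 738 of 12093 autosomal K27R regions (6.10%) held at least 1, and 535 of these held exactly 1.

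The region around a shared promoterless peak often kept a promoter peak as well. In 587 of 1105 (53.1%, 50.1 to 56.1) the K27R region held another K27M peak over a start site, against 37.9% of all autosomal K27M peaks, 46.0% (41.9 to 50.1) of K27M-only promoterless peaks and 27.3% (24.9 to 29.7) of shared promoter peaks. For those 587 the gap to the nearest promoter peak had a median of 36.4 kb. A wider region has more room for a second peak. In 342 (30.95%) the peak was the only K27M peak of its region, against 44.5% of all autosomal K27M peaks and 32.7% of K27M-only promoterless peaks. In 223 (20.2%) the region held no protein-coding start at all. That share was 12.5% of all autosomal K27M peaks and 32.4% of K27M-only promoterless peaks, counting peaks outside any region.

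Peaks alone in their region were more often island peaks. A CpG island was present in 42.4% of the 342 (37.1 to 47.8), against 29.2% of all 1105. It was present in 46.3% (38.8 to 54.0) of the 177 peaks in K27R regions under 50 kb and in 20.7% (17.1 to 24.6) of the 479 in regions of at least 200 kb. In regions with a promoter peak the share was 21.98% (18.7 to 25.5), and in those without 37.5% (33.3 to 41.8). Among the 169 that were alone in a region with no start site it was 43.2%, their median width was 5.2 kb, and they lay at a median of 42.7 kb from the nearest start.

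Several regions held many shared promoterless peaks. The most was 8, in a region of 310.8 kb over the Apol genes on chromosome 15, relatives of apolipoprotein L, with 42.0 kb in the peaks and no CpG island. In that region 64.6% of the sampled 31-base words of the peaks were repeated elsewhere in the genome. A region of 623.4 kb on chromosome 15 around Scn8a, a neuronal sodium channel, and Slc4a8 held 7, as did a region of 521.0 kb on chromosome 12 around Kif26a. A region of 394.6 kb on chromosome 9 held 6, among them the 65.8 kb peak at 9530059O14Rik, and contained no protein-coding start. Regions with 6 also lay around Lingo1, a neuronal receptor component (220.0 kb), Grm4 (326 kb) and Rbfox3 (685.6 kb).

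Part of the class lay in repeated sequence, where short reads cannot be placed with certainty. In 62 shared promoterless peaks (5.61%, 4.33 to 7.14) more than 50% of 31-base words, sampled every 100 bp, occurred more than once in mm9. The share was 12.9% (10.3 to 15.9) of K27M-only promoterless peaks and 1.37% (0.827 to 2.13) of shared promoter peaks. Counted by single words, a different measure, 15.8% of those sampled along the autosomes were repeated. Within shared promoterless peaks the repeated share of words had a mean of 9.84% per peak and a median of 3.85%. The widest of the 62 were a peak of 51.6 kb near Gm5373 with 82.2% repeated words, a peak of 44.0 kb over U1 snRNA genes and lincRNAs on chromosome 3 with 51.4%, and peaks of 27 and 25.2 kb among the Speer genes on chromosome 5 with 84.8% and 80.6%. Repeated peaks were poorer in CG, with a median of 6.58 per kb against 8.54 in the rest of their regions, and were above it in 20 of 60. The part of read placement in these peaks was not tested. Without the 62 the median width stayed at 5.4 kb, and an island was present in 30.0%.

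The 6 peaks with the fewest CG among those at least 5 kb wide held 3.00 to 4.55 CG per kb. They lay near Kcne3, a potassium channel subunit, near Six6, near Tmem92-ps (2 peaks), in the Apol region and near 4930528F23Rik. The Kcne3 peak, 5.0 kb wide, had 3.00 CG per kb against 9.05 in its region, EZHIP covered 84.0% of it, and 6% of its words were repeated. The peak near Six6, a homeodomain factor of the eye, had 3.08 CG per kb and 1.92% repeated words. The other 4 had 22.7% to 58.5% repeated words.

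By chromosome, the shared promoterless peaks made up 21.9% (16.4 to 28.3) of the K27M peaks on chromosome 1 and 42.7% (36.0 to 49.7) on chromosome 17, the lowest and the highest, and their density ran from 1.92 per 10 Mb on chromosome 3 to 9.90 on chromosome 17. The cell identity was checked on start sites in K27R regions. None of 10 fibroblast marker genes had its start in such a region, while all 3 neural, both blood and all 3 liver and gut markers with an annotated start did. The sequencing depth of the libraries is not known from peak lists, and the width and number of called peaks can change with it.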

How the data were processed

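H3K27me3 ChIP-seq had been carried out on 5 lines of mouse embryonic fibroblasts, and the peak lists of 3 (K27M, K27R and EZHIP) were analysed. The values deposited by the authors are peak positions with no score. Per the labels and the published methods, Bowtie 1.0.0 placed the reads on mm9, with Drosophila chromatin as a spike-in, and MOSAiCS-HMM called broad peaks, whose edges fall on 200 bp bins. Whether the spike-in entered the calls is not given in the sources used here. Each list is 1 library, so there is no replicate spread. The lists hold no depth or signal, so no test was run.

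Positions were compared in Python 3.11.15 (numpy 2.4.6, pandas 2.3.3, scipy 1.17.1), with NCBIM37 sequence, GENCODE vM1 genes and, for miRNAs, RefSeq mature sequences. Printed positions are 1-based. CpG islands were runs scored 17 for CG and -1 for every other base. Shares carry Clopper-Pearson intervals, and medians carry order-statistic intervals. Interval and island code was tested on simulated data.

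The regions, the 20 gene lists and the markers were chosen with earlier results of these data known. Named peaks are the 8 widest, the 8 with most island sequence, the 6 farthest from a start, the 6 of at least 5 kb with fewest CG, those over miRNAs, the 6 widest over lincRNAs, those equal to an EZHIP peak and those at the rule's thresholds, of which a few are not reported here. Genes and K27R regions with the most peaks, alternative transcript starts and repeated peaks were named after their values were seen. Of 20 marker symbols 18 were in the annotation.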

Additional observations from a re-analysis of the deposited data

How the results depend on the processing

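Other definitions of the shared promoterless peaks left 677 with reciprocal overlap of at least 50%, 612 at 5 kb or wider and 889 to 1043 under the other choices, against 1105. The share with a CpG island was 24.3% with all protein-coding transcript starts, 25.98% with no start site within 5 kb, 32.9% with reciprocal overlap, 38.6% at 5 kb or wider, 32.2% with peaks up to 10 kb apart merged, 19.7% for islands of at least 500 bp and 65.2% by sliding window. The share in gene bodies was 36.3% with all transcript starts and 44.9% at 5 kb or wider, where noncoding starts came to 13.2%. The share whose region held a promoter peak was 62.1% with no start within 5 kb, 57.0% at 5 kb or wider and 47.0% with merging. The median width was 4.8 kb where EZHIP covered at least 50%, 6.2 kb at 2 kb or wider and 10.4 kb at 5 kb or wider. The median EZHIP coverage was 91.8% where it was at least 50%, 88.9% with reciprocal overlap, 71.03% at 5 kb or wider and 88.2% with merging. The median start distance was 31.8 kb with no start within 5 kb and 25.3 kb at 5 kb or wider. The median K27R region was 164.0 kb with reciprocal overlap, 190.2 kb with no start within 5 kb and 189.7 kb at 5 kb or wider. In all, 27 of 74 alternative values lay outside the 1.5-fold or 95% range of the reported value and 47 within it. Leaving out the 62 peaks of repeated sequence, an alternative chosen after seeing the data, moved none of the 9 results. No paired analysis was possible because each line has 1 library. Peak lists hold no depth, so peaks missed in 1 line cannot be told apart from peaks absent there.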
